A study of Mus musculus with 4 samples.

Results

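Genes encoding histone-modifying enzymes were examined in RNA polymerase II (Pol II) ChIP-seq peak lists from mouse brain endothelial cells (ECs). The members were the autosomal protein-coding genes of the mm10 annotation whose symbols begin with Hdac, Sirt, Kdm, Kmt or Kat followed directly by a number. There were 47 such genes among 20807 autosomal protein-coding genes. They comprised 16 writers (8 Kat acetyltransferase and 8 Kmt methyltransferase genes), 15 erasers of methylation (Kdm demethylase genes) and 16 deacetylases (9 Hdac and 7 Sirt genes). The rule used names alone and no measured value. The sex-linked Hdac6, Hdac8, Kdm6a, Kdm5c and Kdm5d were outside it.

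The study profiled Pol II in flow-sorted ECs as a readout of active transcription, beside RNA and chromatin accessibility data that are not analysed here, in work on KLF4, a zinc finger transcription factor, in the ageing brain endothelium. There were 2 libraries from old WT Cre mice, which carry the VE-cadherin (Cdh5) driven, tamoxifen-inducible Cre without the knock-out, and 2 from young EC-K4KO mice, in which the same Cre recombines floxed Klf4 alleles. All 4 libraries therefore came from Cre-carrying brain ECs, and genotype and age changed together, so no difference between the groups can be assigned to either. The sources used here do not say whether each library came from 1 animal or from several, and the spread between libraries may be technical.

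Histone acetyltransferases and methyltransferases add acetyl and methyl groups to lysines of the histone tails, and demethylases and deacetylases take them off again. Acetylation and methylation of certain lysines accompany active promoters and enhancers, and others accompany silenced chromatin. Most of these enzymes are made in every cell type, and sirtuins and Jumonji-type demethylases need metabolites (NAD+ for the former, oxygen and 2-oxoglutarate for the latter). Pol II gathers just downstream of the transcription start site (TSS) before it moves into the gene, so a ChIP peak near a TSS marks loaded polymerase and a peak in the gene body marks polymerase along the gene.

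Each deposited list gave the position, summit, pileup and fold enrichment of peaks called in 1 library. A promoter peak was one that overlapped the 1500 bp on either side of any annotated TSS of the gene, and a gene body peak was one whose summit lay in the gene outside these windows. The libraries held 65734178 and 27455452 fragments in old WT Cre against 35227929 and 22705175 in young EC-K4KO (replicates 1 and 2 of each, named old 1, old 2, young 1 and young 2 from here on). They gave 78851, 39674, 35638 and 235591 peaks in the same order. The library with the least fragments, young 2, thus gave the longest list. A missing peak means only that none was called in that library, and list length did not follow the number of fragments. Fewer transcribing cells and less polymerase per cell cannot be told apart from each other or from other differences between the libraries. The cause of the list lengths was not tested. Of 17 endothelial marker genes, 5, 6, 0 and 10 had a promoter peak in old 1, old 2, young 1 and young 2. Cdh5 was among them in every library but young 1, while Pecam1 and Tek were in none. In the same order, the counts were 2, 2, 1 and 6 of 9 neuronal, 2, 1, 1 and 3 of 7 astrocyte, 0, 1, 1 and 7 of 7 oligodendrocyte, 3, 1, 0 and 5 of 7 microglial and 3, 0, 2 and 6 of 8 mural cell markers. Among all autosomal protein-coding genes 26.8%, 25.6%, 11.1% and 68.6% had one, beside 29.4%, 35.3%, 0% and 58.8% of the endothelial markers. Sets of 7 to 17 genes cannot show that promoter peaks singled out endothelial genes. The part of other cell types in the results was not tested. Klf4 had a promoter peak in both young EC-K4KO libraries (4.20 and 4.17-fold enrichment) but in neither old WT Cre library, and 1, 0, 0 and 2 peaks in its gene body in old 1, old 2, young 1 and young 2. This does not check the deletion, because the sources used here do not say which exons recombination removes.

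Promoters of histone-modifying enzyme genes carried a Pol II peak in 17 (36.2%) and 20 (42.6%) of 47 members in the old WT Cre libraries, against 4 (8.51%) and 39 (83.0%) in the young EC-K4KO libraries. The group means were 18.5 ± 2.12 members in old WT Cre against 21.5 ± 24.7 in young EC-K4KO (SD, n = 2). The 2 young libraries lay on either side of both old ones, so the groups overlapped and the spread within young EC-K4KO exceeded the difference between groups. That difference (young EC-K4KO minus old WT Cre) was 3.0 members, 20.5 without young 1 and -14.5 without young 2. Among all autosomal protein-coding genes, 26.8% and 25.6% had a promoter peak in old WT Cre against 11.1% and 68.6% in young EC-K4KO. For each member the 200 non-member genes closest in length were also taken, and their mean share was 29.5%, 30.6%, 13.0% and 74.6% in the same order of libraries. The 95% Clopper-Pearson intervals of the members' shares (counting error only) were 22.7 to 51.5%, 28.3 to 57.8%, 2.37 to 20.4% and 69.2 to 92.4%, and each includes the share of genes of like length. With a TSS window of 500 bp the difference from genes of like length in old 2 went from 11.99 to -0.117 percentage points. With each list restricted to its 35638 leading peaks, 10, 18, 4 and 23 members had a promoter peak, against 12.4%, 23.7%, 11.1% and 28.3% of all genes, and the young replicates still differed from each other more than the groups did.

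Writers had a promoter peak at 8 and 11 of 16 genes in old WT Cre (50% and 68.8%), beside 29.2% and 29.8% of genes of like length. The intervals were 24.7 to 75.3% and 41.3 to 89.0%, so the first includes the share of genes of like length and the second lies above it. In young 1 none of the 16 writers had one (interval of 0 to 20.6%), beside 12.7% of genes of like length. In young 2, 15 of 16 had one (93.8%), beside 73.0%. With lists of equal length the writers numbered 5, 9, 0 and 12, at a q-value of at most 1e-05 they numbered 8, 6, 0 and 15, and with a TSS window of 500 bp 5, 5, 0 and 11. Under these settings the shares of all genes were 12.4%, 23.7%, 11.1% and 28.3% with lists of equal length, 15.8%, 14.0%, 3.47% and 58.2% at the q-value and 19.1%, 20.8%, 7.90% and 57.2% with the window. With a TSS window of 3000 bp the writers numbered 9, 11, 1 and 16, beside 35.4%, 29.7%, 14.8% and 78.3% of all genes. Erasers had a promoter peak at 3 and 5 of 15 genes in old WT Cre (20% and 33.3%), against 3 and 14 of 15 in young EC-K4KO (20% and 93.3%). Their genes of like length stood at 32.8%, 34.3%, 14.5% and 80.2%. The eraser intervals were 4.33 to 48.1%, 11.8 to 61.6%, 4.33 to 48.1% and 68.1 to 99.8%, and each includes the share of genes of like length. Deacetylases had one at 6, 4, 1 and 10 of 16 genes (37.5%, 25.0%, 6.25% and 62.5%), beside 26.7%, 27.9%, 11.9% and 70.9%. Writers were thus the class with the largest share bound in old 1 and old 2 with the 1500 bp window, but not in old 2 with the 500 bp window, where 5 of 16 writers and 5 of 15 erasers were bound. The erasers held 3 of the 4 members bound in young 1. With lists of equal length the erasers numbered 3, 5, 3 and 7 and the deacetylases 2, 4, 1 and 4, and at a q-value of at most 1e-05 these counts were 3, 3, 1 and 14 for erasers and 4, 3, 0 and 9 for deacetylases, to be read beside the all-gene shares just given for the same settings. No test was made between classes, because genes of a class are not replicates of a condition.

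**Figure D1:**
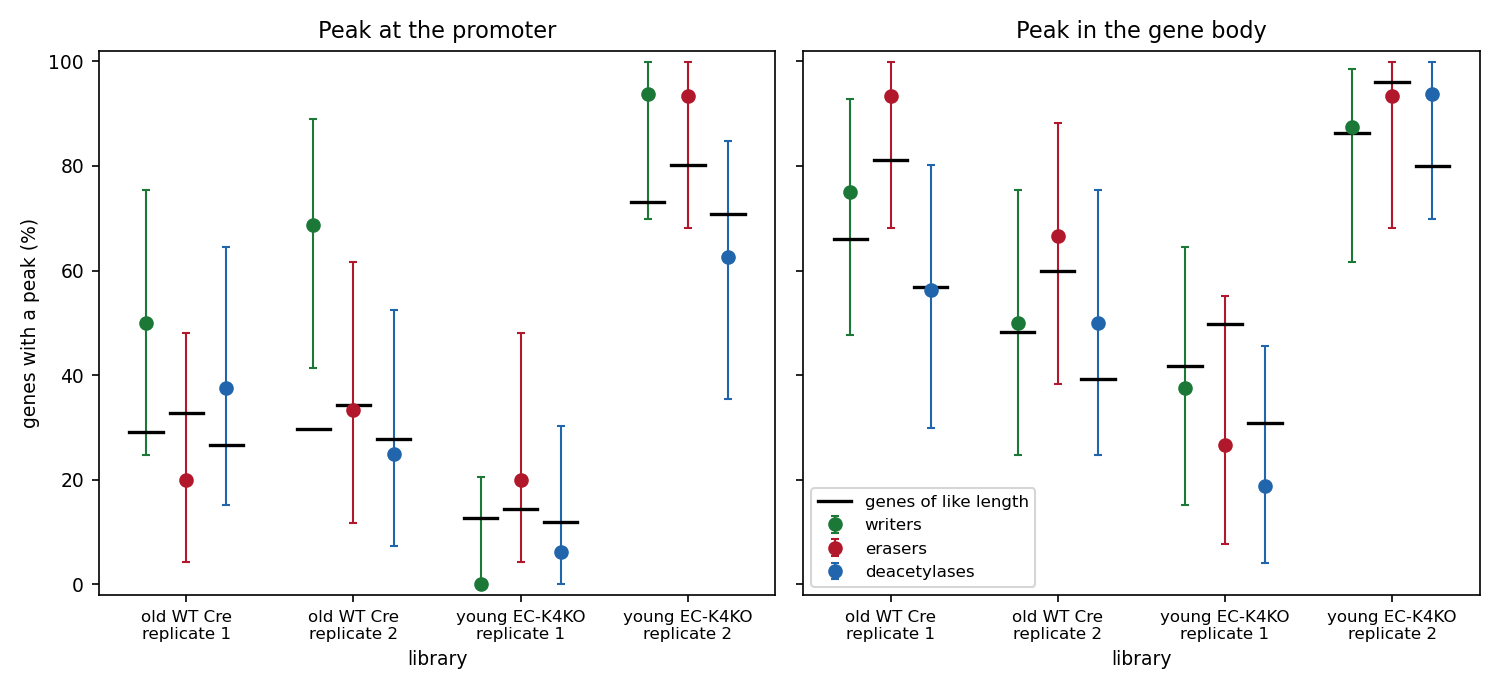
Share of histone-modifying enzyme genes (%) with a Pol II peak at the promoter (left) and in the gene body (right) in each library, for 16 writers, 15 erasers and 16 deacetylases. Points are shares, bars are 95% Clopper-Pearson intervals (counting error only) and black lines are the mean share of the 200 genes nearest in length to each member. In the promoter panel writers lie above their black line in old 1, old 2 and young 2 and at 0 in young 1.

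Across libraries, 12 of 47 members had a promoter peak in both old WT Cre libraries, which held for 10.6% of all genes. They were the writers Kat6a, Kat8, Kmt2c, Kmt2d, Kmt2e, Kmt5a and Kmt5b, the eraser Kdm5a and the deacetylases Hdac2, Hdac3, Hdac4 and Sirt1. In both young EC-K4KO libraries 4 members had one (8.51%), namely Kdm3a, Kdm5a, Kdm5b and Sirt3, and this held for 9.55% of all genes. Genes of like length stood at 12.3% for both old libraries and 11.6% for both young ones, beside 25.5% and 8.51% of members. With lists of equal length the members numbered 6 (12.8%) and 2 (4.26%), beside 4.98% and 5.45% of all genes and 5.89% and 6.76% of genes of like length. Kdm5a was the one member with a promoter peak in all 4 libraries, a pattern of 2.33% of genes. No member had it with lists of equal length (1.02% of genes) or at a q-value of at most 1e-05 (0.442%). Hdac3 was bound in old 1 and old 2 but in no young library, as were 0.827% of genes. Sirt3 had the opposite pattern, as did 3.22% of genes. A single member of 47 is 2.13%, so each of these 3 patterns rests on 1 gene and says nothing of the members as a group.

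**Figure D2:**
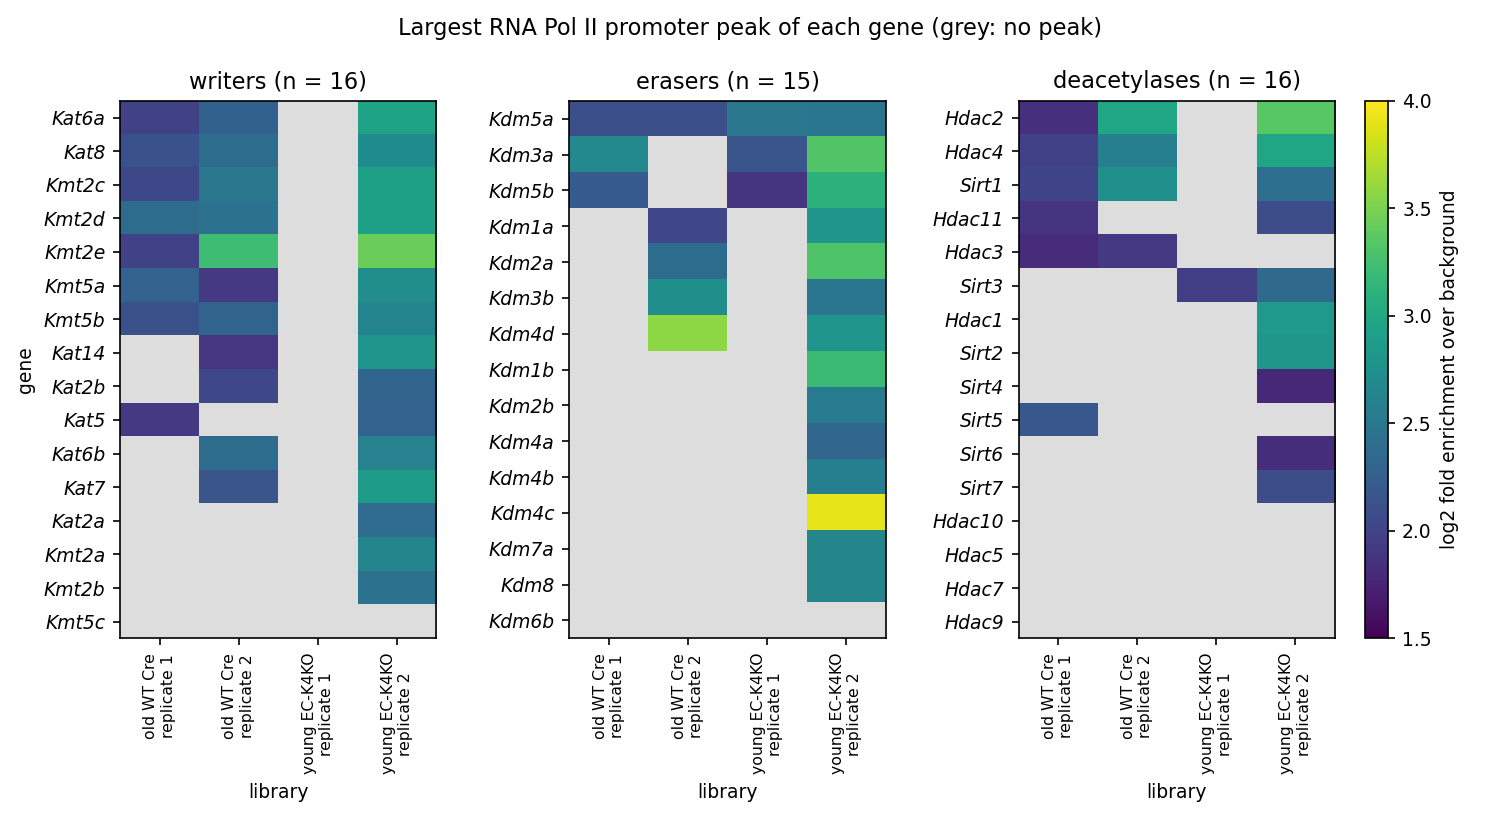
Log2 fold enrichment of the largest promoter peak of each of the 47 genes (rows) in the 4 libraries (columns), with grey where no promoter peak was called. Coloured writer cells number 8, 11, 0 and 15 of 16 from left to right, and Kdm5a is the one gene with no grey cell.

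Promoter sequences of bound members are shown where a called peak overlapped them. An overlap need not include the summit or the marked letters. The Kdm5b summits lie past the end of its window, and the old WT Cre Kat8 summits lie before the start of its window. RefSeq promoter windows of the mm10 assembly (GRCm38.p6), which run from 250 bases before to 50 after a TSS, were at hand for 36 of the 47 members. The 7 windows below were chosen after the peaks were seen, as those overlapped by a promoter peak in at least 2 libraries. Each reads 5′ to 3′ on the strand of the gene. Capitals mark the GC box bound by Sp and KLF family factors (GGGCGG on either strand, found in 48.3% of all 19152 autosomal protein-coding promoter windows) and the core of ETS factor sites (CCGGAAG on either strand, in 12.1%). A match is a description of the letters and not a site of binding. No share over the members is given beside these, because fewer than 80% of them had an entry.
Kdm5b: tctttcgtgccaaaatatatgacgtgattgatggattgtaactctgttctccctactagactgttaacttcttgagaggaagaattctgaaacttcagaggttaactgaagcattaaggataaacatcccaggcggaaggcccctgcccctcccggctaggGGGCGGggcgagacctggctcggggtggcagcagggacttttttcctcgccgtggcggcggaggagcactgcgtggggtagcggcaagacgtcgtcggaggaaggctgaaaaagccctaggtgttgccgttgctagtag
Kdm3a: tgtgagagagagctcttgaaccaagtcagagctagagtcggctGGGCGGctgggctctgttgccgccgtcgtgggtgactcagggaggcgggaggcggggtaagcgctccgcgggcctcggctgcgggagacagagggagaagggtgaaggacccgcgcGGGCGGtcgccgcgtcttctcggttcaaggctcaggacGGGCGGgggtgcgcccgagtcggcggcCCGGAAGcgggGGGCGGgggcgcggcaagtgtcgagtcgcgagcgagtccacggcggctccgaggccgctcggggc
Hdac2: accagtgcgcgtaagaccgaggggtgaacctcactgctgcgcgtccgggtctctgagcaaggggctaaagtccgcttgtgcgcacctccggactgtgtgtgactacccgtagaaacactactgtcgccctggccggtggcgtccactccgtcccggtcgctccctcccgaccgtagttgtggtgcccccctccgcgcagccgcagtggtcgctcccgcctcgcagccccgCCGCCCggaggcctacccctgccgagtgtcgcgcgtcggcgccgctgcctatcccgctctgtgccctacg
Sirt3: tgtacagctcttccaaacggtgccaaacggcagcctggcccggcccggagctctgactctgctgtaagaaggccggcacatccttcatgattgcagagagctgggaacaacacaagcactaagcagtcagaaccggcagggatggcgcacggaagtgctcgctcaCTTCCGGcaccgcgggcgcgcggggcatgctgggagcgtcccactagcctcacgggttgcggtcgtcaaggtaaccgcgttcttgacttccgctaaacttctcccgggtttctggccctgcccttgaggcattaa
Kat8: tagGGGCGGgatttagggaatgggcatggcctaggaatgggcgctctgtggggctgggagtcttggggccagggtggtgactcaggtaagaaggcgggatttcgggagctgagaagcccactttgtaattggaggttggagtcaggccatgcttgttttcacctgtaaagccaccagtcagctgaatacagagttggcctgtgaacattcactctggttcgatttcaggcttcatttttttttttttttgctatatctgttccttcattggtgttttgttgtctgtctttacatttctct
Kat5: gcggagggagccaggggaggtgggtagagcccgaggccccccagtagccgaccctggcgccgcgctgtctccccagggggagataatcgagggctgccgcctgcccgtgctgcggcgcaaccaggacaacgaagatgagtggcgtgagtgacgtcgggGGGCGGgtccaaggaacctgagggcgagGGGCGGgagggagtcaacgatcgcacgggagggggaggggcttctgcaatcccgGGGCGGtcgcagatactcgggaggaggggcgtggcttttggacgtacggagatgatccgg
Kmt5a: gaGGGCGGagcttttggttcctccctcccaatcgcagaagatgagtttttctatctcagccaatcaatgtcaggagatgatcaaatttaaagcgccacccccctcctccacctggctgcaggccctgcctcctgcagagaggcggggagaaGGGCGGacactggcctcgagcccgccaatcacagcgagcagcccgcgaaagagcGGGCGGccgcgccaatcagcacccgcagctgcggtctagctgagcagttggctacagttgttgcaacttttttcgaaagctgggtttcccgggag
The Kdm5b window (chr1:134559928-134560227, plus strand) was overlapped in old 1 and in both young EC-K4KO libraries and holds 1 GC box, at base 162 counted from its first base. The Hdac2 window (chr10:36974294-36974593, plus strand) was overlapped in old 1, old 2 and young 2 and holds 1 GC box at base 231. The Sirt3 window (chr7:140882260-140882559, minus strand) was overlapped in both young EC-K4KO libraries and holds 1 ETS core at base 166 and no GC box. The Kdm3a window (chr6:71632637-71632936, minus strand) was overlapped in old 1 and young 2, and 4 GC boxes and 1 ETS core lie in it. The Kat8 window (chr7:127912764-127913063, plus strand) was overlapped in both old WT Cre libraries. The windows of Kat5 (chr19:5609695-5609994, minus strand) and Kmt5a (chr5:124439680-124439979, plus strand) hold 3 GC boxes each. The former was overlapped in old 1 and young 2, the latter in old 2 and young 2.

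Among the writers, the lysine methyltransferases of the Kmt2 family place methyl groups on histone H3 at promoters and enhancers. Kmt2e, a family member without clear methyltransferase activity of its own, had promoter fold enrichments of 3.94 and 9.32 in old WT Cre and 10.9 in young 2, and no peak in young 1. The value of 9.32 came from a summit 1220 bp upstream of the Kmt2e TSS and nearer to the TSS of 5031425E22Rik. Kmt2d, an enhancer methyltransferase, had 5.22, 5.39 and 7.62 in the same 3 libraries. Its summits lay 899, 887 and 892 bp upstream of the Kmt2d TSS, within 12 bp of each other and nearer to the TSS of other annotated genes. Kmt2c, the close relative of Kmt2d, had 4.13, 5.64 and 7.59, with summits 1099 bp upstream, 875 bp downstream and 1094 bp upstream. The upstream summits, in old 1 and young 2, were nearer to the TSS of 4831440E17Rik. The founding family members Kmt2a and Kmt2b had a promoter peak in young 2 alone (6.22 and 5.43), in both cases with the summit nearer to another gene's TSS.

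The Kmt5 enzymes methylate histone H4. Kmt5a, which places the first methyl group, had 4.89, 3.78 and 6.66 in the 2 old WT Cre libraries and young 2. The summits lay at 124445301, 124446185 and 124439844, so the old WT Cre values and the young 2 value came from different annotated starts. In old 2 a weaker peak (3.37) lay at the start of the young 2 value. Kmt5b, which adds further ones, had 4.34, 4.95 and 6.17. Its old 1 and young 2 summits lay at another annotated start than its old 2 summit. Its paralog Kmt5c had no promoter peak in any library. Each of the 7 writers bound in both old WT Cre libraries was thus also bound in young 2 and in no case in young 1. In all, 10 members shared this pattern (with Hdac2, Hdac4 and Sirt1), as did 7.37% of all genes.

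The acetyltransferases differed in the libraries that held their peaks. Kat8, which acetylates histone H4, had 4.39, 5.24 and 6.56 in old 1, old 2 and young 2. Its summits fell 190, 161 and 156 bp downstream of the TSS, so these peaks stood at nearly the same place. Kat6a, the acetyltransferase also known as MOZ, had 3.94, 4.85 and 7.74, with summits 884, 691 and 762 bp downstream. Its paralog Kat6b had 5.22 in old 2 and 6.09 in young 2 alone, with summits 765 and 696 bp downstream. Kat7, Kat14 and Kat2b were bound in these same 2 libraries (4.47 and 7.25, 3.73 and 7.01, 4.11 and 4.97). Kat5, the catalytic subunit of the NuA4/TIP60 complex, was bound in old 1 (3.76) and young 2 (4.86), with summits 89 and 92 bp downstream. Kat2a, a subunit of the SAGA complex, had a peak in young 2 alone (5.18), 1457 bp upstream and nearer to the TSS of Hspb9.

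Among the erasers, the Kdm5 enzymes remove methyl groups of histone H3 that mark active promoters. Kdm5a had promoter fold enrichments of 4.32 and 4.32 in old WT Cre against 5.62 and 5.59 in young EC-K4KO, with pileups of 22, 11, 18 and 14 fragments at the summits. Both young values exceeded both old ones. Among the 484 genes bound in all 4 libraries this held for 16.1%, and the reverse held for 3.51%. On the log2 scale young EC-K4KO exceeded old WT Cre by 0.38 (2.49 ± 0.00473 against 2.11 ± 0.00043, SD, n = 2; exact permutation test over the 4 libraries, two-sided, p = 0.33, and 2 against 2 libraries allow no smaller one). Fold enrichment is relative to the background of its own library. Ranked among all promoter-bound genes of the same library, Kdm5a stood at percentiles 67.3 and 22.8 in old WT Cre against 91.0 and 45.1 in young EC-K4KO, so that the groups overlapped (exact permutation test, p = 0.67). The Kdm5a peak of old 1 and that of young 1 had summits 364 and 367 bp downstream of the TSS. The other libraries had shorter separate peaks in the window, 2 in old 2 and 3 in young 2, whose largest lay 779 and 1107 bp downstream.

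Kdm5b, its paralog, was bound in old 1 (4.70) and in both young EC-K4KO libraries (3.67 and 8.60). Its summits fell 173, 153 and 141 bp downstream of the TSS, and the 3 peaks overlapped each other at the end of the window shown above. Kdm3a, a Jumonji demethylase, was bound in the same 3 libraries with 6.39, 4.46 and 10.01. Its 6.39 was the highest promoter fold enrichment of any member in old 1. In the paralog Kdm3b a peak was called in old 2 (6.71) and young 2 (5.58), with summits 507 and 532 bp downstream.

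Kdm4d, a member of the Kdm4 family of Jumonji demethylases, had the highest member value of old 2, 11.9, and was bound in young 2 with 6.96. Its summits were 193 and 258 bp downstream. Cwc15, another protein-coding gene, has a TSS in the Kdm4d window, but neither summit was nearer to it. Kdm4c had the highest value of young 2 and of all member peaks, 15.0, from a summit 41 bp upstream of a TSS, and had no promoter peak in the other 3 libraries. Kdm1a, the amine oxidase LSD1, was bound in old 2 (4.10) and young 2 (7.04). Kdm2a, which binds unmethylated CpG DNA, was bound in the same libraries with 5.22 and 9.94. The remaining erasers with a promoter peak, Kdm1b, Kdm2b, Kdm4a, Kdm4b, Kdm7a and Kdm8, had it in young 2 alone, with fold enrichments from 5.02 for Kdm4a to 9.23 for Kdm1b. Kdm6b, which removes methyl groups linked to silencing, had none in any library.

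Among the deacetylases, Hdac1, Hdac2 and Hdac3 are the nuclear class I enzymes of corepressor complexes. Hdac2 had promoter fold enrichments of 3.57 and 7.83 in old WT Cre and 10.2 in young 2, with summits 402, 168 and 366 bp upstream of the TSS. Hdac1 had a peak in young 2 alone (7.19, 87 bp downstream). Hdac3 had 3.52 and 3.78 in the 2 old WT Cre libraries, at percentiles 28.9 and 9.28 of the promoter-bound genes. These 2 peaks did not overlap, since their summits lay 203 and 1214 bp upstream, and both were nearer to the TSS of Rell2 than to that of Hdac3. With peaks counted only where the summit was nearest to a TSS of the gene itself, no member was bound in both old WT Cre libraries alone. This held for 0.947% of all genes.

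Hdac4, a class IIa enzyme that shuttles between nucleus and cytoplasm, had 3.94 and 5.97 in old WT Cre and 7.81 in young 2. The other class IIa genes, Hdac5, Hdac7 and Hdac9, had no promoter peak in any library, and neither had Hdac10. Together with Kdm6b and Kmt5c these made 6 members of 47 without any promoter peak (12.8%), against 24.0% of all genes and 18.6% of genes of like length. With peaks counted only where the summit was nearest to a TSS of the gene itself, the count was 12 (25.5%), against 28.8% and 23.0%. With lists of equal length it was 16 (34.0%), against 51.0% and 44.3%, and with a TSS window of 3000 bp 2 (4.26%), against 15.0% and 11.5%. Hdac11, the class IV enzyme, was bound in old 1 (3.68) and young 2 (4.26).

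Sirtuins are NAD+-dependent deacylases. Sirt1, a nuclear sirtuin studied in vascular ageing, had 4.07 and 6.73 in old WT Cre and 5.34 in young 2. Its old WT Cre summits lay 1814 and 1557 bp downstream of the first Sirt1 TSS, beyond the window that the peaks overlapped. The young 2 summit lay 208 bp upstream of another annotated Sirt1 TSS, inside the gene, so the old and young peaks stood at different starts. With the gene 5′ end as the only TSS, and with lists of equal length, Sirt1 was bound in old 1 and old 2 and in no young library. Sirt3, a mitochondrial sirtuin, had 3.90 and 5.14 in the 2 young EC-K4KO libraries and no peak in old WT Cre. The 2 peaks overlapped each other and the window shown above. Their summits lay 248 and 26 bp upstream, the former nearer to the TSS of Psmd13, which lies within 1500 bp of a Sirt3 TSS on the reference. Sirt5, also mitochondrial, was bound in old 1 alone (4.52, 28 bp downstream). The remaining Sirt2, Sirt4, Sirt6 and Sirt7 had a peak in young 2 alone, from 3.44 for Sirt4 to 7.05 for Sirt2. The summits of Sirt2, Sirt6 and Sirt7 were nearer to the TSS of Nfkbib, Ankrd24 and Mir6936, and that of Sirt4 lay 1490 bp upstream. With the members named above, 15 had a promoter peak in young 2 alone, against 30% of all genes.

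Promoter fold enrichments of members lay close to those of other bound genes. The median fold enrichment of bound members was 4.13, 5.22, 4.18 and 6.24 in old 1, old 2, young 1 and young 2, beside 3.94, 5.001, 4.17 and 5.80 over all bound genes. The summit fell within 500 bp of a TSS of the gene in 12 of 17, 8 of 20, 4 of 4 and 23 of 39 bound members, beside 59.6%, 72.1%, 61.8% and 67.4% of bound genes. The median distance of the summit was 203, 645, 288.5 and 350 bp in members, beside 367.5, 269, 327 and 279 bp over all bound genes, so members lay closer in in old 1 and young 1 and farther out in old 2 and young 2. Another annotated gene had a TSS within the window of 20 members, and the largest promoter peak was nearer to such a TSS in 3, 3, 1 and 8 members.

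**Figure D3:**
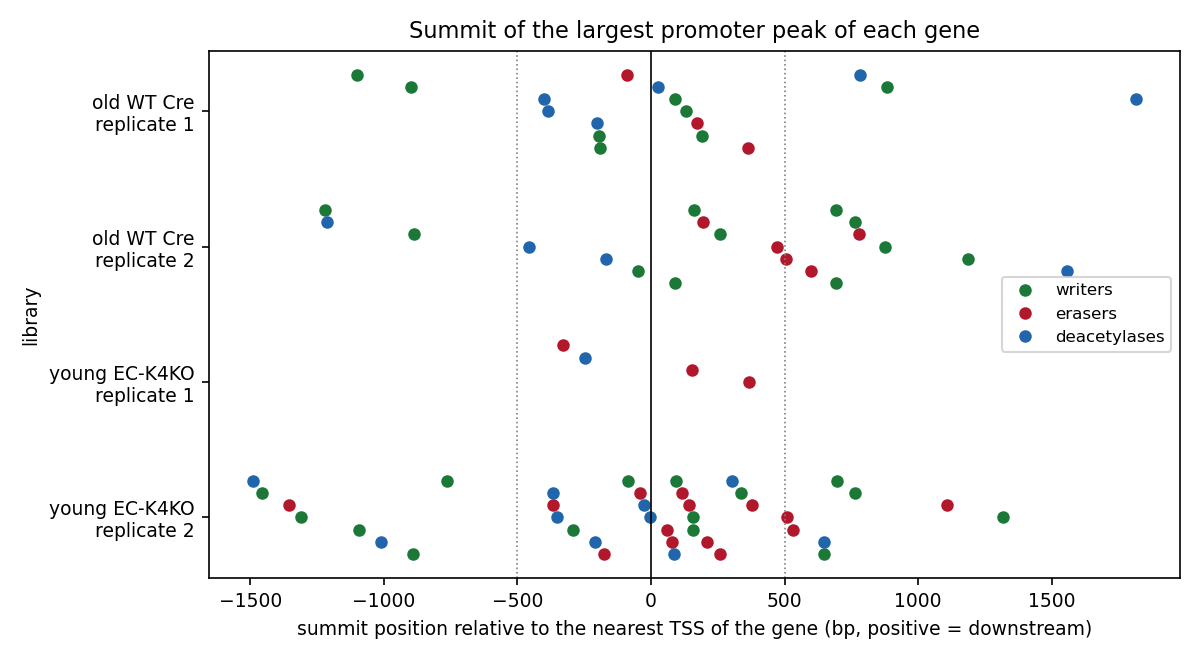
Summit position of the largest promoter peak of each bound histone-modifying enzyme gene relative to the nearest TSS of that gene (bp, positive values downstream), by library and class, with dotted lines at 500 bp on either side. In old 2, 8 of 20 summits lie between the dotted lines, and in young 1 all 4 do.

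Where a promoter was bound in both libraries of a group, the peaks mostly met. Peaks overlapped by at least 1 bp in 8 of the 12 members bound in both old WT Cre libraries (Hdac2, Hdac4, Kat6a, Kat8, Kdm5a, Kmt2c, Kmt2d and Sirt1), against 60.3% of all genes bound in both. They overlapped in all 4 members bound in both young EC-K4KO libraries, against 66.4% of genes. Between groups, they overlapped in 13 of 15 members bound in old 1 and young 2 (64.7% of genes) and in 16 of 19 bound in old 2 and young 2 (74.6% of genes). With young 1 they overlapped in 2 of 3 members for old 1 (51.6% of genes) and in 1 of 1 for old 2 (54.5% of genes). Young 2 had 65 promoter peaks over its 39 bound members, and old 1, old 2 and young 1 had 20, 22 and 4 over 17, 20 and 4.

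Gene bodies of members carried a peak in 35 and 26 of 47 genes in old WT Cre (74.5% and 55.3%), against 13 and 43 in young EC-K4KO (27.7% and 91.5%). The group means were 30.5 ± 6.36 and 28.0 ± 21.2 members (SD, n = 2), and the young libraries again lay on either side of the old ones. Among the 19636 genes with a body outside their TSS windows the shares were 51.6%, 36.4%, 28.8% and 74.7%. Genes of like length had 67.7%, 48.9%, 40.6% and 87.3%, and the members' intervals of 59.7 to 86.1%, 40.1 to 69.8%, 15.6 to 42.6% and 79.6 to 97.6% each include that share. In old 1 the difference of 6.775 percentage points turned to -2.309 at a q-value of at most 1e-05, to -3.501 at a fold enrichment of at least 4 and to -6.958 with lists of equal length. Erasers had a body peak in 14, 10, 4 and 14 of 15 genes in old 1, old 2, young 1 and young 2 (93.3%, 66.7%, 26.7% and 93.3%), beside 81.2%, 59.8%, 49.7% and 96.1% of genes of like length. Writers had one in 12, 8, 6 and 14 of 16 (75.0%, 50%, 37.5% and 87.5%), beside 65.9%, 48.3%, 41.7% and 86.3%. Deacetylases had one in 9, 8, 3 and 15 of 16 (56.3%, 50%, 18.8% and 93.8%), beside 56.8%, 39.3%, 30.9% and 79.9%. The interval of each class included the share of its genes of like length in all 4 libraries.

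Counted per megabase, member bodies were not richer in peaks than other genes. Their 3.34 Mb held 101, 47, 26 and 296 peaks, or 30.3, 14.1, 7.79 and 88.7 per Mb, beside 35.0, 16.1, 12.9 and 101 per Mb over all genes. By class and in the same order of libraries, the erasers had 33.7, 18.9, 4.21 and 87.3 peaks per Mb, the writers 32.2, 13.5, 13.5 and 95.6, and the deacetylases 26.7, 11.2, 6.32 and 85.0. Eraser and writer bodies (0.951 and 0.962 Mb) held 32 and 31 peaks in old 1 and 18 and 13 in old 2. In young 1 they held 4 and 13, and in young 2 83 and 92. These classes were thus nearly equal in old 1, and no order between them was tested. Hdac9, the longest member with a body of 863 kb, had 18, 8, 4 and 40 peaks although its promoters had none. Without it, member bodies held 33.5, 15.8, 8.89 and 103 peaks per Mb. Hdac4, with a body of 261 kb, had 11, 0, 4 and 37 peaks. The 0 in old 2 contrasts with its promoter fold enrichment of 5.97 in that library.

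**Figure D4:**
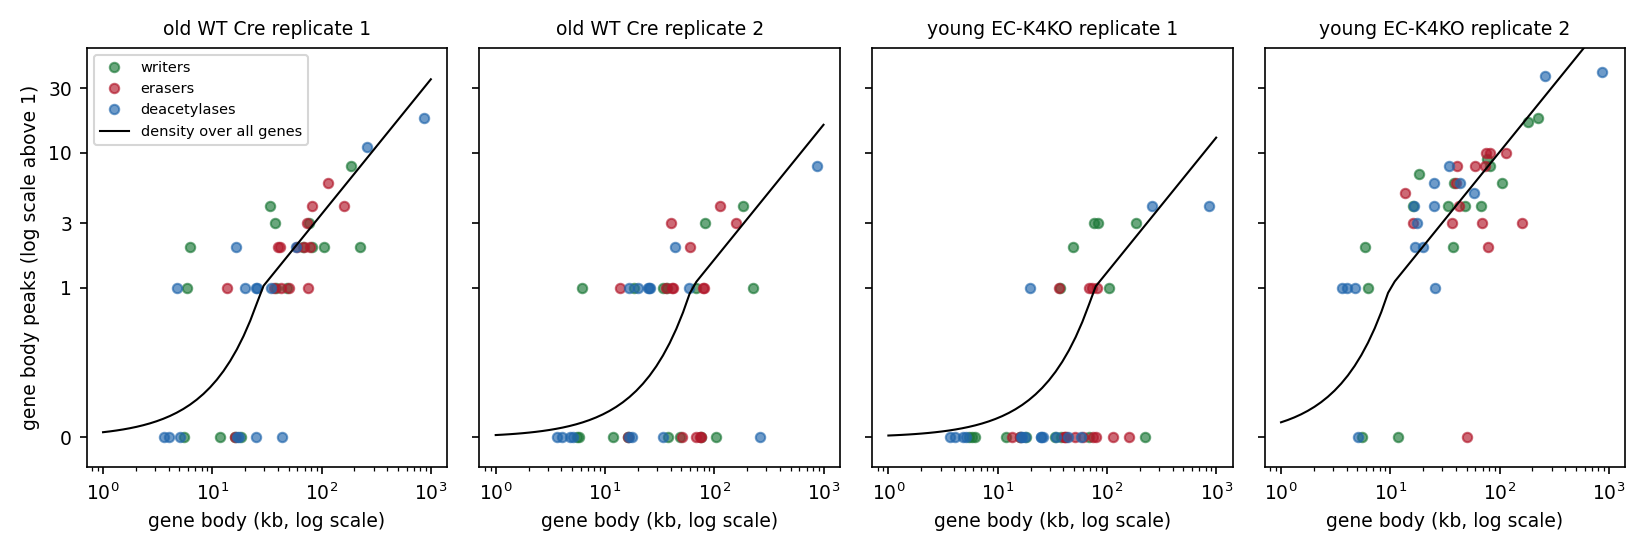
Number of Pol II peaks in the gene body against gene body length (kb, log scale) for the 47 genes in each library, with a linear scale below 1 peak and a log scale above. The black line is the peak density over all autosomal protein-coding genes; most members in young 1 lie at 0, and Hdac9, the longest at 863 kb, lies below the line in every library.

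Members were also ranked by body peaks per kb relative to the length of each list, summed over the 4 libraries, a measure that often rests on single peaks. Among writers, Kat2a (6.22 kb of body) had 2, 1, 0 and 1 peaks, Kmt5c (5.83 kb) had 1, 0, 0 and 2, and Kmt2b (18.4 kb) had 0, 1, 0 and 7. Among erasers, Kdm6b (13.7 kb) had 1, 1, 0 and 5, Kdm1b (40.3 kb) had 2, 3, 0 and 6, and Kdm4d (36.4 kb) had 1 in each of the first 3 libraries and 3 in young 2. Kdm6b and Kmt5c thus had body peaks in old 1 and young 2 without any promoter peak. Among deacetylases, Sirt2 (19.9 kb) had 1, 1, 1 and 2 peaks, Sirt4 (4.79 kb) had 1, 0, 0 and 1, and Hdac11 (16.5 kb) had 2, 0, 0 and 4. In young 2 alone the order differed, with 10.05 peaks per 100 kb for Sirt2 against 24.2 for Hdac11, 24.8 for Sirt6 and 27.5 for Hdac10, the last 2 from 1 peak each. Among writers, Kat2a stood at 16.1 there against 38.1 for Kmt2b. Among erasers, Kdm4d stood at 8.23 against 19.4 for Kdm4a, while Kdm6b stayed first with 36.6. The remaining genes without a promoter peak differed in their bodies, since Hdac5 had 1, 0, 0 and 8, Hdac7 had 0, 2, 0 and 6 and Hdac10 had 0, 0, 0 and 1. Kat5, Kat8 and Sirt7, each bound at the promoter in at least 1 library, had no body peak in any.

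Body summits of members were also placed on exons. Exons held 16.8%, 19.1%, 23.1% and 26.4% of the 101, 47, 26 and 296 summits, beside 12.3%, 16.1%, 10.9% and 13.9% over all genes. Exons made up 7.40% of the member bodies and 6.10% of all gene bodies. Relative to these base shares, exon summits were 2.28, 2.59, 3.12 and 3.56 times as frequent in members, beside 2.02, 2.64, 1.80 and 2.27 times over all genes. Members were thus below all genes in old 2 and above them in the other libraries, in young 1 on 6 exon summits.

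Other genes of the same pathways were counted from lists of named subunits and enzymes, beside the 26.8%, 25.6%, 11.1% and 68.6% of all genes with a promoter peak in old 1, old 2, young 1 and young 2. Of 21 lysine methyltransferase genes under other symbols, such as Setd2 and Ezh2, 9 and 8 had a promoter peak in old WT Cre against 6 and 19 in young EC-K4KO. In young 1, where none of the 16 writers named Kat or Kmt had a promoter peak, 28.6% of these did. Of 8 other acetyltransferases, 4, 6, 3 and 8 had one, and Ep300 and Gtf3c4 had it in all 4 libraries. Of 10 other Jumonji proteins, 2, 2, 1 and 7 had one. Among partner subunits, a promoter peak was present in 10, 12, 5 and 29 of 35 HDAC corepressor genes, 4, 5, 1 and 8 of 13 COMPASS genes, the partners of Kmt2 enzymes, and 12, 19, 6 and 36 of 40 genes of acetyltransferase complexes. Ncor1, the corepressor that activates Hdac3, and Epc1 and Jade1, subunits of Kat5 and Kat7 complexes, were bound in all 4 libraries.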

How the data were processed

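RNA Pol II ChIP-seq was performed by the authors on crosslinked, MNase-digested chromatin of flow-sorted brain ECs. Reads were trimmed, aligned to mm10 with Bowtie2 and called with MACS (version 2.2.7.1 per the file headers) in each library at a q-value cutoff of 0.01, without a control library. The headers state that duplicates were kept at calling, and the study's methods state that they were removed beforehand. The deposited lists give per peak the pileup (coverage signal at the summit), the fold enrichment (a ratio to the local or genome background of the same library), and the −log10 p-value and −log10 q-value. The caller's smallest pileups were 13, 8, 9 and 7. Values are not normalized between libraries, and the peak lists hold no counts per gene. Narrow-peak and summit files repeat these lists and were not used.

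Peaks were placed on GENCODE M21 basic genes (GRCm38, the mm10 assembly) with Python 3.11.15, numpy 2.4.6 and pandas 2.3.3. TSS windows were 1500 bp on either side of every basic transcript start. The placement was tested on simulated data. Background rates were taken over 20807 autosomal protein-coding genes, and over the 200 genes nearest in length to each member. Intervals are 95% Clopper-Pearson and cover counting error only. Kdm5a, bound in all 4 libraries, was compared by an exact permutation test over libraries (scipy 1.17.1). Counts of bound members are given with their means and SD over libraries and were not tested.

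Groups came from the labels. The members, gene lists and tests were chosen with earlier results of these data known. Every member was named with its libraries. Values were given in full for members bound in all 4 libraries, in 1 group alone or in none, for the 3 members of each class with the densest body peaks, and for the highest promoter fold enrichment of each library, and values of further members were added. Alternatives varied the q-value and fold minimum, list length, TSS window, TSS set, peak placement, number of genes of like length and libraries.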

Additional observations from a re-analysis of the deposited data

How the results depend on the processing

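Peak lists without read counts limit these results to presence and position, and with 2 libraries a group the exact permutation test allows no p below 0.33. At a q-value of at most 1e-05, a promoter peak remained at 12 members in old 2 and 1 in young 1, and a body peak at 2 in the latter, where all genes stood at 14.0%, 3.47% and 12.5%. At that cutoff 7 members were bound in both old libraries (3.97% of all genes) and 1 in both young libraries (2.75%). There were 0 in all 4 (0.442%), 0 in old WT Cre alone (0.461%) and 0 in young EC-K4KO alone (1.26%). At a fold enrichment of at least 4, promoter peaks numbered 10 in old 1 and 2 in young 1, body peaks 20 and 6 (all genes: 12.3% and 6.87%, 32.8% and 19.8%). At that minimum 6 members were bound in both old and 2 in both young libraries (4.81% and 5.78%). In old WT Cre alone and in young EC-K4KO alone there were 0 (0.428% and 2.45%). With lists of equal length, promoter counts were 10 in old 1 and 23 in young 2, body counts 19 and 25 (all genes: 12.4% and 28.3%, 34.0% and 32.5%). Under that setting 6 members were bound in both old and 2 in both young libraries (4.98% and 5.45%). There were 0 in all 4 (1.02%) and 0 in young EC-K4KO alone (2.09%). The 1 in old WT Cre alone (1.89%) was Sirt1 in place of Hdac3. A 500 bp window gave 12 in old 2 (20.8%), 6 in both old libraries (7.09%) and 0 in old WT Cre alone (0.692%). The gene 5′ end as sole TSS gave 2 in old WT Cre alone (0.865%), Hdac3 and Sirt1. Peaks nearest to a TSS of the gene itself, an alternative chosen after seeing the data, left 0 in either group alone (all genes: 0.947% old WT Cre, 2.95% young EC-K4KO). Leaving out 1 library, with the other standing for its group and no test, gave 17 to 20 members for old WT Cre (all genes: 26.8% and 25.6%). It gave 4 to 39 for young EC-K4KO (11.1% and 68.6%). The counts were 1 to 11 for every remaining library, 1 to 11 for old WT Cre alone and 1 to 16 for young EC-K4KO alone. These patterns have no share of all genes beside them and are not read as a result about the members. In 8 cases a difference changed sign. Young minus old in members with a promoter peak went from 3.0 to -14.5 without young 2 and to -0.5 with lists of equal length, and in members with a body peak from -2.5 to 2.0 without old 1 and to 12.5 without young 1. Members minus genes of like length went from 11.99 to -0.117 percentage points for old 2 promoters with the 500 bp window. For old 1 bodies it went from 6.775 to -2.309 by q-value, to -3.501 by fold and to -6.958 with lists of equal length. The cause of these shifts was not tested. The other 142 values that answer a comparison kept their sign and moved by less than the spread between libraries or by less than 1.5 times.

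The replicate numbers say nothing of shared origin. With the replicate block the Kdm5a difference stayed at 0.38 on the log2 scale (exact sign-flip permutation, p = 0.5, the smallest 2 pairs allow). The comparison of promoter base composition is void because 36 of 47 members had a promoter entry, and matching on promoter CpG ratio in place of length was for that reason not run.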
